A study of Rattus norvegicus with 113 samples.

Results

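The collagen genes are described here over 113 Agilent arrays of rat brain. Members were chosen by symbol: a probe belongs if its RefSeq identifier maps to a rat gene named Col, a number, the letter a and a number, Col8a1 excepted. Of 43 such symbols in the RefSeq gene table, 22 had a named probe and 21 had none, among 16691 named genes in all. Each gene is read from its brightest probe. By role, 8 members are fibrillar (Col1a1, Col1a2, Col2a1, Col3a1, Col5a1, Col5a3, Col11a1, Col11a2), 4 are fibril-associated (Col9a1, Col9a2, Col14a1, Col16a1) and 2 belong to basement membranes (Col4a1, Col4a4). A further 2 are multiplexins (Col15a1, Col18a1), 2 form beaded filaments (Col6a2, Col6a5), 2 span the membrane (Col13a1, Col23a1) and 2 fall in no such class (Col7a1, Col26a1). Col4a2 and Col6a1 had no named probe and were not measured.

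RNA came from the hippocampus and from a small piece of cortex near the injury site of adult male Sprague-Dawley rats. TBI rats received a parasagittal fluid-percussion injury (moderate in the labels, severe in the methods), sham rats the same anaesthesia and surgery without the pressure pulse, and naive rats neither. Rats were killed at 24 hr, after 2 weeks or after 3, 6 or 12 months, with 4 rats per group, each rat giving both tissues and each array 1 tissue of 1 rat. Hippocampus at 24 hr is the exception, with arrays from 2 sham and 3 TBI rats and none from naive rats. A sample is bulk tissue, so more cells of a type and more RNA per cell cannot be told apart, and adherent meninges or choroid plexus are measured along with the brain.

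Collagens are triple-helical proteins of the extracellular matrix. Fibrillar types build the tough fibres of meninges, vessel adventitia and scar, fibril-associated types decorate those fibres, and type IV collagen forms the sheet-like network under every endothelium. Brain parenchyma holds little fibrillar collagen, and its main producers there are meningeal and perivascular fibroblasts, with vascular cells making the basement membrane types.

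Promoter sequence could be read from RefSeq (build GRCr8) for 17 of the 22 members, as 250 bases before the start site and 50 from it onward. Col1a2 and Col13a1 are shown because their tissue difference was wide, and Col11a2 and Col9a2 because they were lower at 24 hr. Capitals mark 3 motifs that were searched on both strands. TATAAA is the letter pattern of the core promoter box, and GGGCGG that of the box bound by Sp1. CCAAT is that of the upstream box bound by NF-Y, which reads ATTGG in Col1a2 because it lies on the other strand. The TATAAA matches begin at base -170 (Col1a2) and -237 (Col13a1) from the start site. Whether they act as core promoter boxes there was not tested. In Col11a2 the 2 copies furthest upstream overlap.
Col1a2, chr4:33518307-33518606, plus strand: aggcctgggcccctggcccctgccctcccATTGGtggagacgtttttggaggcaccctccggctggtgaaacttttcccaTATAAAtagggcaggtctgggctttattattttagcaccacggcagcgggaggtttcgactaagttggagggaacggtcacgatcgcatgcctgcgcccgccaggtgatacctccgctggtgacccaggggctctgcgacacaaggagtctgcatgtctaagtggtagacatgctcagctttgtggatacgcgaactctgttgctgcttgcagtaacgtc
Col13a1, chr20:30466751-30467050, minus strand: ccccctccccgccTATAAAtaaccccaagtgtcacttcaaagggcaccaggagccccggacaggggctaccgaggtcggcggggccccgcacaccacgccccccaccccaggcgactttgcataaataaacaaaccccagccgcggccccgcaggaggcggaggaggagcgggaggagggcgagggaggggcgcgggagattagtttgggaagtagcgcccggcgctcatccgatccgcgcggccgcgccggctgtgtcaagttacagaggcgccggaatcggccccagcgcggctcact
Col11a2, chr20:4817599-4817898, minus strand: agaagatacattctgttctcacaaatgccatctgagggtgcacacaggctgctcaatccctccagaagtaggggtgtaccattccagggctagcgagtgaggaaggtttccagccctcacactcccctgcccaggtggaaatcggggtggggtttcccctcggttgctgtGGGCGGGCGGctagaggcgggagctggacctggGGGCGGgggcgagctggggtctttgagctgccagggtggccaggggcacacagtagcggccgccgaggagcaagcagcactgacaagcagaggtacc
Col9a2, chr5:139892548-139892847, plus strand: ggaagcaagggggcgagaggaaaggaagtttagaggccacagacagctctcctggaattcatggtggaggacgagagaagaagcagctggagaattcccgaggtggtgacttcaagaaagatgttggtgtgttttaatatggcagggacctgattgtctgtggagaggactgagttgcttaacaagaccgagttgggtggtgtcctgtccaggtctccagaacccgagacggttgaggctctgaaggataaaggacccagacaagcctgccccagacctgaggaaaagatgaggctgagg
TATAAA was found for 2 of the 17 members (11.8%, Col1a2 and Col13a1) and in 14.2% of all 33469 promoters of that length. A member counts if any promoter listed for it matched, while the share of all is over single promoters, so these shares are not strictly alike. CCAAT was found in 5 of 17 (29.4%, against 37.5% of all), Col1a2 among them. GGGCGG was found in 9 of 17 (52.9%, against 33.1% of all), including Col11a2, Col7a1 and Col5a1. None of the 3 motifs lay in the Col9a2 window. These matches are a description of letters only.

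Levels are log2 signals with the median of the array's probes set to 0, so 1 unit is a doubling, and levels of different genes were not compared. The scanner software calls a probe well above background or not, and 41.2% to 93.0% of probes passed per array (median 56.0%). No probe was saturated. The highest share belongs to cortex sham replicate 3 at 2 weeks, whose signals spread over an interquartile range of 1.74 log2 units against 3.83 to 7.67 on the other arrays, and the TBI against sham values of fibrillar members there, and the order of the tissues, are given without it too. The 17 hippocampal arrays of 24 hr and 3 months carry a smaller design that has no named probe for Col16a1 and Col6a5 and reads Col1a1, Col5a1, Col9a1, Col11a1, Col13a1 and Col14a1 from other probes, so levels of those genes were not set against other intervals.

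Detection separated the members into a widely measured and a sparse set. In total, 10 members were above background on every array that carried them, 16 were so on every cortex array and 10 on every hippocampal array. Col4a4, a chain best known from the kidney's filtration barrier, passed on 5 of 113 arrays (4.42%) and was tested in no TBI against sham comparison. Col2a1, the main collagen of cartilage, passed on 43 arrays (38.1%), Col11a1 on 64 and Col14a1, which binds the surface of fibrils, on 68. The transmembrane Col13a1 passed on 59 of 59 usable cortex arrays and on 14 of 53 hippocampal arrays. Col26a1, a short collagen with an EMI domain, passed on 60 of 60 against 24 of 53, and Col7a1, the anchoring fibril collagen, on 56 of 60 against 29 of 53.

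Col1a1, Col1a2 and Col3a1 of naive rats stood higher in cortex than in hippocampus at 6 and 12 months. This contrast asks how the uninjured regions differ, but no slide held both tissues at these intervals, so tissue and slide cannot be told apart. At 6 months Col1a2, a chain of type I collagen, read 6.32, 5.38, 5.25 and 5.66 in naive cortex and 2.83, 1.52, 2.03 and 2.17 in naive hippocampus. The groups did not overlap, and the difference (hippocampus minus cortex) was -3.51 on the log2 scale (SE 0.29, 4 arrays per tissue, limma adjusted p = 2.62e-30). Col1a1, its partner chain, read 5.52, 4.89, 4.54 and 4.82 against 2.53, 0.91, 1.55 and 1.64, a difference of -3.28. Col3a1, the type III collagen of vessel walls and reticular fibres, read 5.95, 5.33, 4.48 and 5.46 against 2.55, 1.37, 2.10 and 1.54, a difference of -3.41. For these genes the lowest cortex array lay well above the highest hippocampal array. At this interval limma assigned all probes 1 common spread, hence the shared SE and the very small p-values, which come from 8 arrays.

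Outside the fibrillar trio the same order was seen at 6 months in 7 more members. Col13a1, which sits in the plasma membrane and is known from the neuromuscular junction, read 1.99, 1.61, 2.25 and 1.58 in cortex and -0.89, -0.75, -1.97 and -1.09 in hippocampus, where 1 of 4 arrays passed background (difference -3.03). Col26a1 differed by -2.03, with 2 of 4 hippocampal arrays above background. These sizes rest in part on hippocampal signals not well above background, and so do those of Col7a1 (2 of 4 arrays above it) and Col6a5 (3 of 4) at this interval. Col13a1, Col26a1, Col7a1 and Col6a5 were tested only because cortex, where they are high, passed background, so the count below leans in part on them. Col6a2, a chain of the microfibrillar type VI collagen, read 4.07, 3.62, 3.64 and 3.80 against 2.76, 1.43, 2.26 and 1.90, a difference of -1.70. Both ranges were again apart. Col18a1, the precursor of endostatin, differed by -1.48, Col5a1, which starts fibril assembly, by -1.37, Col7a1 by -1.33 and Col6a5 by -1.10. In all, 10 of 18 tested members were called lower in hippocampus at 6 months, where 11.7% of all tested probes were, and the members' median difference was -1.22 against -0.07 for all probes. Scaling to the 75th percentile or quantile normalization kept these 10 and added 3 calls in the other direction (Col5a3, Col16a1 and Col23a1). The split of all called probes moved from 1101 higher and 2680 lower to 4928 and 4238 with the 75th percentile.

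**Figure D1:**
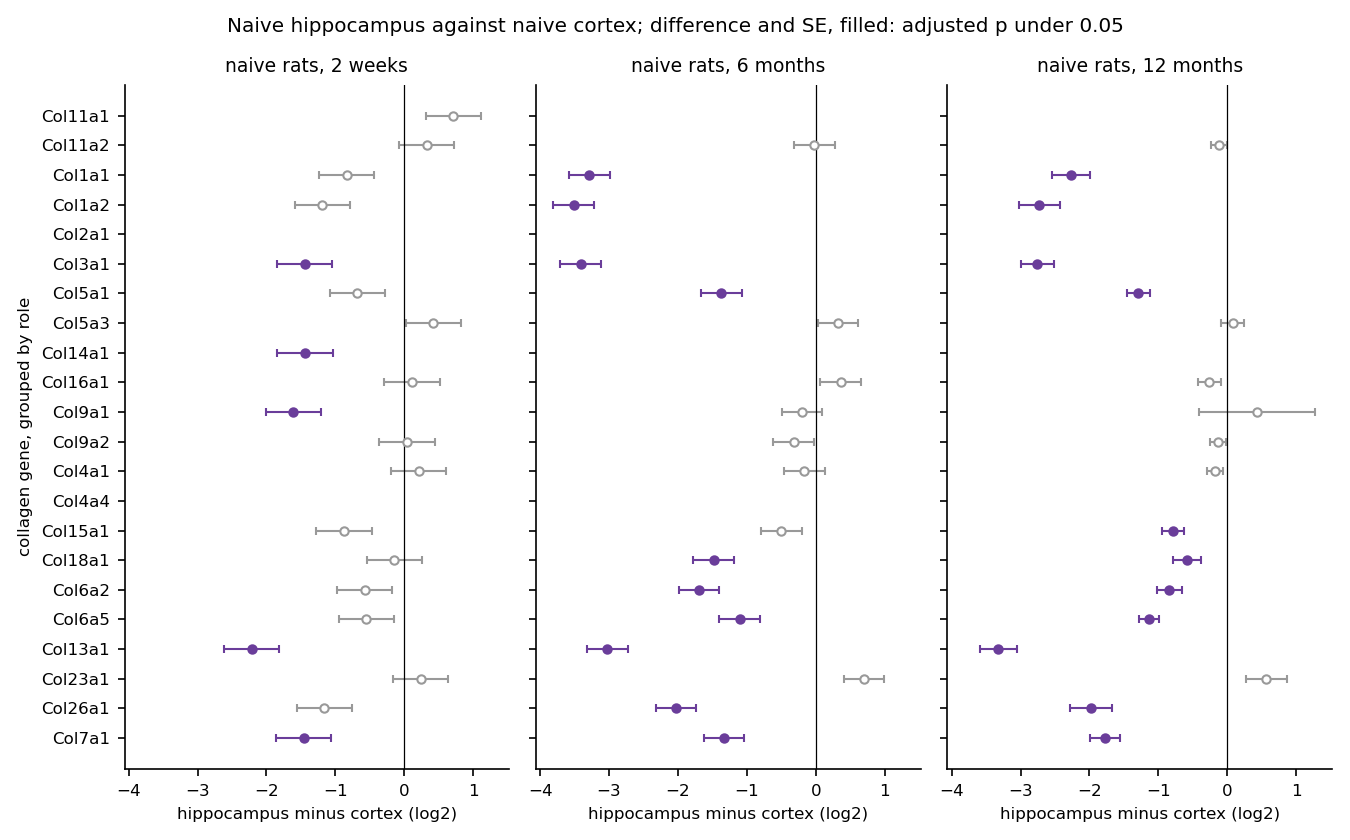
Difference between naive hippocampus and naive cortex (log2, x axis) for each tested collagen (y axis, grouped by role) at 2 weeks, 6 months and 12 months, 4 arrays per tissue. Points are limma estimates with their SE and filled points passed an adjusted p of 0.05: every filled point lies left of 0, while Col4a1 runs from -0.18 to 0.21.

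At 12 months, of 18 tested collagens 11 were called lower in hippocampus and 0 higher, where 12% of all tested probes were called lower and 25.3% higher, and the members' median difference was -0.81 against 0.13 for all probes. Col3a1 read 4.85, 4.95, 4.44 and 4.46 in cortex and 1.27, 1.90, 2.45 and 2.06 in hippocampus (difference -2.75, SE 0.23, adjusted p = 3.74e-05). Col1a2 differed by -2.73 (SE 0.29, adjusted p = 0.000148) and Col1a1 by -2.27 (SE 0.27, adjusted p = 0.000264), both with groups that did not overlap. Col13a1 was above background on none of the 4 hippocampal arrays and on all 4 cortex arrays, which bounds it at at least 5.62-fold higher in cortex (adjusted p = 2.71e-05). Col7a1 likewise passed on none of the hippocampal arrays and was at least 1.92-fold higher in cortex (adjusted p = 0.000303). Each such bound sets the mean of the bright group against the background level of the dim arrays. Col13a1, Col7a1 and Col26a1 were tested only because cortex, where they are high, passed background, so the count of 11 leans in part on them. Smaller differences were called for Col26a1 (-1.98, with 1 of 4 hippocampal arrays above background), Col5a1 (-1.29), Col6a5 (-1.13), Col6a2 (-0.84), Col15a1 (-0.79) and Col18a1 (-0.58). The Col18a1 call was lost in 6 of 12 alternatives, among them leaving out cortex replicate 1, 2 or 4 or hippocampus replicate 1 or 2. Col15a1 and Col18a1 are multiplexins, which tie basement membranes to the matrix around them.

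At 2 weeks 5 of 20 tested members were called lower in hippocampus and 0 higher, where 1.22% of all probes were called lower. They were Col13a1 (-2.21, SE 0.40), Col9a1 (-1.61, SE 0.40), Col7a1 (-1.46, SE 0.40), Col3a1 (-1.45, SE 0.40) and Col14a1 (-1.44, SE 0.40), with limma adjusted p between 5.35e-06 and 0.0116. The SE was the same for all of them, since limma used a common spread here too. This SE and the p-values therefore do not measure the replicate spread of each gene. In hippocampus Col13a1 passed background on 1 of 4 arrays, Col7a1 and Col14a1 on 2 and Col9a1 on 3, so these sizes too rest in part on signals near background. Col13a1, Col7a1, Col14a1 and Col9a1 were tested only because cortex, where they are high, passed background, so the one-sided count leans on them. With no filter on dim probes 1 member was called, Col13a1. The tissues lay on different slides at 2 weeks too, so tissue and slide cannot be told apart. The median of all probes was itself shifted by 0.44 toward hippocampus, a shift that scaling to the 75th percentile moved to -0.01, and that scaling called 11 members lower, with 2050 probes of the whole array higher and 2569 lower in place of 921 and 296. Cortex naive replicate 4 carried low values here (Col3a1 4.14, Col11a2 4.36, Col4a1 2.44), and 10 members were called without it. Hippocampus naive replicate 4 carried high ones, with Col1a2 at 5.28 against 3.22 to 3.79 in its group, and 7 members were called without it. The count fell to 3 without cortex replicate 1 and to 2 without hippocampus replicate 1, 2 or 3, and Col13a1 was called in each of these fits.

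The order of the tissues was also seen in sham and TBI rats. No slide held both tissues in any arm at 2 weeks, 6 or 12 months, and the tissues were scanned on different days. Tissue and slide therefore cannot be told apart there either. Over the 9 pairs of groups with both tissues on the larger design (3 arms at 2 weeks, 6 and 12 months), every cortex array exceeded every hippocampal array in 9 pairs for Col13a1. The count was 7 for Col3a1, Col5a1, Col6a2 and Col26a1, and 6 for Col1a1, Col1a2 and Col6a5. Col7a1 was so ordered in 6 of its 7 tested pairs. Between 0.592% and 22.9% of all tested probes showed that order in a single pair. A pair was tested where every array of at least 1 tissue was above background, which sparse members such as Col13a1 could meet through cortex alone. The sham pair at 2 weeks holds the cortex array with the narrow spread of signals, on which Col1a2 read 0.94. Leaving that pair out, an alternative chosen after seeing the data, the counts were 8 of 8 for Col13a1, 7 for Col3a1, Col5a1 and Col6a2, and 6 for Col1a1, Col1a2, Col6a5 and Col26a1. Some collagens did not follow the order. Col4a1, a core chain of the vascular basement membrane, had 0 of 9 pairs apart in either direction, and its differences ran from -0.30 to 0.66, or to 0.21 without the sham pair at 2 weeks. Col5a3, a minor type V chain, had every hippocampal array above every cortex array in 3 of 9 pairs (2 of 8 without that pair). Col23a1, a small transmembrane collagen, was so ordered in 2 of 9, and Col11a2 and Col16a1 each in 1 of 9. In a single pair 4.3% to 27.1% of all tested probes showed this opposite order, so these counts do not set the members apart.

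Summed meningeal markers were lower in naive hippocampus without overlap at 6 months, and overlapped between the tissues at 2 weeks and 12 months. Of 14 genes listed as meninges and fibroblast markers, 13 had a probe and 11 were tested at 6 months, of which 9 were lower in hippocampus, as were 11.7% of all probes, among them Ogn (-3.53), Slc22a6 (-3.43) and Crabp2 (-3.24). Their summed level, with the array median as 1, was 483 to 907 in naive cortex and 88.3 to 197 in naive hippocampus at 6 months, and Aldh1a2 and Foxc2 passed background on none of those hippocampal arrays. At 12 months the sums were 347 to 495 against 126 to 638, and at 2 weeks 171 to 490 against 178 to 438. The 638 belonged to hippocampus replicate 3, where summed choroid plexus markers were 8040 against 86.2 to 231 in its group. The other hippocampal arrays of 12 months had meningeal sums of 126 to 182. Mural cell markers were lower in hippocampus for 7 of 12 genes at 6 months (sums 94.5 to 179 against 231 to 368) and for 9 of 12 at 12 months, where 12% of all probes were lower. Endothelial markers were lower in hippocampus for 5 of 11 genes at 6 months (sums 182 to 386 against 411 to 476) and for 9 of 11 at 12 months (328 to 402 against 462 to 485). The part of meninges, mural cells and endothelium in the collagen differences was not tested. Among region markers, the cortical gene Lamp5 was lower in hippocampus at 12 months (-2.81), as were 12% of all probes. This 1 gene is no full check of the tissue labels.

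Partner genes of the collagens were examined as lists of matrix proteins, folding enzymes and receptors. At 6 months, 10 of 16 tested fibril partner genes were lower in hippocampus and 1 was higher, with a list median of -1.04. Of all tested probes 11.7% were lower and 4.82% higher at this interval. The fibril partner list shares Dcn, Lum, Ogn and Mgp with the meningeal list, so the lists are not independent. Of 22 tested genes for collagen folding and crosslinking 4 were lower and 0 higher, and the list median of -0.08 lay near the -0.07 of all probes. Among 6 basement membrane partners, 3 were lower.

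**Figure D2:**
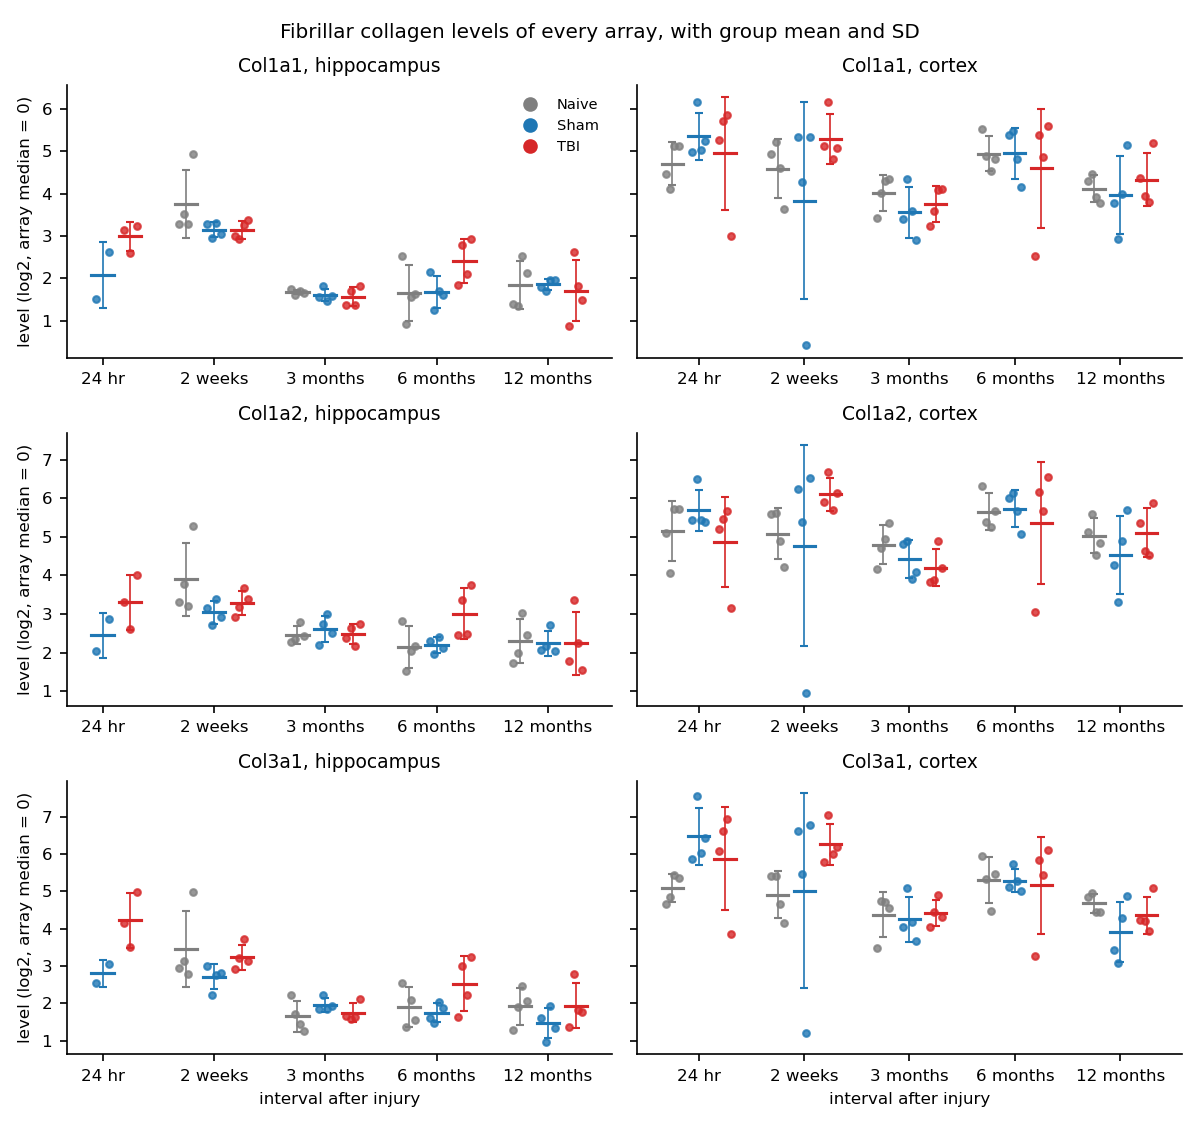
Level (log2, array median at 0, y axis) of Col1a1, Col1a2 and Col3a1 on every array by interval (x axis), tissue and group, with group mean and SD as bars. Single arrays reach far from their group, such as cortex sham at 2 weeks (Col3a1 1.19) and cortex TBI at 24 hr (Col3a1 3.87), and hippocampal Col1a1 of 24 hr and 3 months comes from another probe than at the remaining intervals.

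After injury, collagens differed from sham in the hippocampus at 24 hr. Of 14 tested members, 2 were called higher in TBI, where 5.57% of all tested probes were, and 3 lower, where 8.07% were. The median of the tested members was 0.68 against -0.02 for all probes. Sham and TBI arrays lay on different slides scanned on different days, so injury and slide cannot be told apart here, and only 2 sham arrays carried the comparison.

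Col7a1 rose, from -0.82 and -0.56 in the 2 sham arrays to 0.71, 0.69 and 0.25 in the 3 TBI arrays. All TBI arrays were above both sham arrays, a rise of 1.24 on the log2 scale (SE 0.20, limma adjusted p = 0.0144). Over the alternatives this rise ran from 0.51 to 1.39. Over all intervals Col7a1 passed background on 29 of 53 hippocampal arrays and Col9a1 on 38 of 53. The sizes given for Col7a1 and Col9a1 may thus rest in part on signals near background. A probe was tested where every array of at least 1 of the compared groups was above background. Col7a1 and Col9a1 could meet this through the group where they are high alone, so the counts of called members may lean in part on them. Col6a2 read 2.38 and 2.26 in sham and 3.32, 3.06 and 2.83 in TBI, a rise of 0.75 (SE 0.18, adjusted p = 0.0456), again without overlap. Col11a2, a type XI chain that limits fibril width, fell from 5.4 and 5.6 to 4.36, 3.85 and 4.25, a change of -1.35 (SE 0.19, adjusted p = 0.0113). Col9a2, a chain of type IX collagen that coats cartilage fibrils, fell from 3.59 and 3.44 to 2.55, 2.54 and 2.39 (-1.02, SE 0.14, adjusted p = 0.00959). Col9a1, another type IX chain, fell from 0.07 and 0.03 to -1.28, -0.59 and -0.79 (-0.94, SE 0.22, adjusted p = 0.0433), and was lost in 10 of 11 alternatives.

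The type I and III collagens were higher in TBI at this time without passing the test. Col3a1 read 2.55 and 3.05 in sham and 4.15, 3.52 and 4.99 in TBI, so all TBI arrays were higher, but the spread within TBI was wide (1.42, SE 0.42, adjusted p = 0.0762). Col1a1 differed by 0.91 (SE 0.36, adjusted p = 0.148), Col1a2 by 0.86 (SE 0.44, adjusted p = 0.241), Col5a1 by 0.64 (SE 0.21, adjusted p = 0.0952), Col4a1 by 0.66 (SE 0.27, adjusted p = 0.16) and Col18a1 by 0.57 (SE 0.31, adjusted p = 0.261). Groups did not overlap with TBI higher for 5 of 14 members, as for 22.8% of all probes, and with TBI lower for 3 of 14, as for 27.3%.

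Without sham replicate 1 or without sham replicate 2, 0 members were called, but such a fit has 1 sham array, which is assumed to vary like the TBI arrays, and says little about stability. Of the members, 3 were called without TBI replicate 1 (Col7a1, Col9a2 and Col11a2). Without TBI replicate 2 Col3a1 passed (1.77), and without TBI replicate 3 Col5a1 passed (0.82). With no filter on dim probes 0 members were called, and with normexp background Col1a1 (0.91) and Col3a1 (1.54) passed as well. With the replicate number as a block, Col7a1 alone was called.

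Some partner genes rose in the same hippocampi, where 5.57% of all probes did. Fn1, the fibronectin scaffold on which collagen fibrils form, rose by 1.80, one of 3 of 13 tested fibril partner genes called higher, with 0 lower. In the TGF-beta list, which holds the main inducers of fibrillar collagen and genes they act on, 5 of 10 tested genes rose and 0 fell, among them Tgfbi (2.15) and Ltbp1 (1.94). Of 19 tested folding and crosslinking genes 2 rose and 0 fell, and of 3 tested collagen receptors 0 were called. Summed meningeal markers were 102 and 158 in sham and 293 to 368 in TBI, with Igfbp2 (2.06), Mgp (1.71, also on the fibril partner list) and Thbd (1.53) called higher, and Aldh1a2 and Slc47a1 above background on no array of either group. Summed mural markers were 60.3 and 69.1 against 78.1 to 156, with Tagln (2.55) and Des (1.33) higher. Summed microglia and macrophage markers were also higher in TBI (500 and 598 against 787 to 1150), as were endothelial markers (117 and 141 against 148 to 156). Sums of oligodendrocyte lineage markers (3170 and 3750 against 2400 to 2890), neuron markers (659 and 725 against 590 to 652) and hippocampus markers (167 and 204 against 120 to 155) were lower in TBI, and astrocyte markers overlapped (955 and 1120 against 1010 to 1150). Summed choroid plexus markers overlapped and varied widely, at 27.1 and 1170 in sham and 36.5, 76.5 and 969 in TBI. The array with the highest choroid plexus sum of each group, sham replicate 2 and TBI replicate 3, was also the one highest in Col3a1. The part of these cells in the collagen values was not tested.

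In cortex at 24 hr the comparison with sham called 1 of 19 members. Col26a1 read 1.53, 1.34, 1.19 and 1.09 in sham and 0.03, 0.61, 0.04 and -0.27 in TBI, a fall without overlap (-1.19, SE 0.19, adjusted p = 0.0406, different slides). It was the single probe called lower of all tested (0.00387%), while 0.213% were called higher. The call was lost in 12 of 15 alternatives, among them leaving out any of the 4 sham arrays or TBI replicate 1, 2 or 4, and both other scalings, under which the all-probe median moved from 0.12 to -0.02 and 0.01. Under normexp background 4 members were called, Col5a3, Col7a1 and Col16a1 higher and Col26a1 lower.

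The fibrillar members of that comparison turned on single arrays. Col3a1 read 5.87, 7.57, 6.03 and 6.43 in sham and TBI replicate 4 stood at 3.87 where its group otherwise reached 6.08 to 6.93, a difference of -0.60 (adjusted p = 0.604) that became 0.07 without that array. Col1a1 differed by -0.40, or 0.26 without it. Summed meningeal markers were 288 on that array and 493 to 661 on the other TBI arrays, and 1100 in sham replicate 2, the array with the highest Col3a1, against 472 to 502 in the other sham arrays. Col4a1 differed by 0.46 (adjusted p = 0.269).

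Against naive cortex at 24 hr, which lay on another slide, 5 of 19 members were called in TBI. Col7a1 was higher, as were 6.38% of all probes: naive arrays read -0.21, -0.15, 0.84 and 0.50 and TBI arrays 2.31, 1.80, 2.03 and 1.92 (1.77, SE 0.35, adjusted p = 0.0101). Col26a1, at 1.92, 1.76, 1.54 and 2.21 in naive cortex, was lower (-1.75, SE 0.19, adjusted p = 0.00609), as were 11.1% of all probes. Col11a2 read 6.51, 6.17, 6.55 and 6.33 against 5.27, 4.92, 5.34 and 5.48 in TBI (-1.14, SE 0.16, adjusted p = 0.00743). Col9a2 read 4.35, 3.70, 4.44 and 4.20 against 3.29, 3.19, 3.41 and 2.91 (-0.98, SE 0.18, adjusted p = 0.00848). Col6a5 read 2.14, 2.06, 2.49 and 1.75 against 1.42, 1.68, 1 and 0.33 (-1.0, SE 0.25, adjusted p = 0.0212), and its call was lost without naive replicate 3. None of these 5 genes had overlapping groups, but the share of all probes without overlap was not computed here, so this does not set them apart. Col7a1, Col9a2, Col11a2 and Col26a1 kept their calls in all 15 alternatives. Without TBI replicate 4, Col3a1 passed as well.

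Members of the partner lists were called in both directions here, where 6.38% of all probes were higher and 11.1% lower. Of 22 tested folding and crosslinking genes 4 were higher (Fkbp10 1.01, Crtap 0.79, Plod2 0.60 and P4hb 0.58) and 1 lower. In the TGF-beta list 2 of 14 tested genes were higher, Tgfbi (2.10) among them, and 0 lower. Fn1 was higher (1.59) and Sparc, a collagen-binding glycoprotein, lower (-0.61), the 2 calls among 16 fibril partners. Of 11 tested meningeal markers 0 were called.

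Sham rats also differed from naive rats in cortex at 24 hr, on the same slide. Col11a2 read 5.26, 5.31, 5.75 and 5.68 in sham, below every naive array (-0.89, SE 0.16, adjusted p = 0.00796), and Col9a2 read 3.36, 3.57, 3.87 and 3.5 (-0.60, SE 0.18, adjusted p = 0.0343), overlapping naive replicate 2. These were 2 of 18 tested members, beside 19.2% of all probes called, 0.953% higher and 18.3% lower, with an all-probe median of -0.20. Relative to that median the differences were -0.69 and -0.40. Scaling to the 75th percentile moved the median to -0.02, called Col11a2 only, and gave 163 probes higher and 252 lower in place of 227 and 4355. Quantile normalization called 0 members. The Col9a2 call was lost without naive replicate 1, 3 or 4 and without sham replicate 1, 2 or 4, while Col11a2 kept its call without any 1 array. Col3a1 in sham (5.87, 7.57, 6.03 and 6.43) lay above every naive array (4.67, 4.86, 5.44 and 5.35) without passing, as 1.59% of all probes did in that direction.

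**Figure D3:**
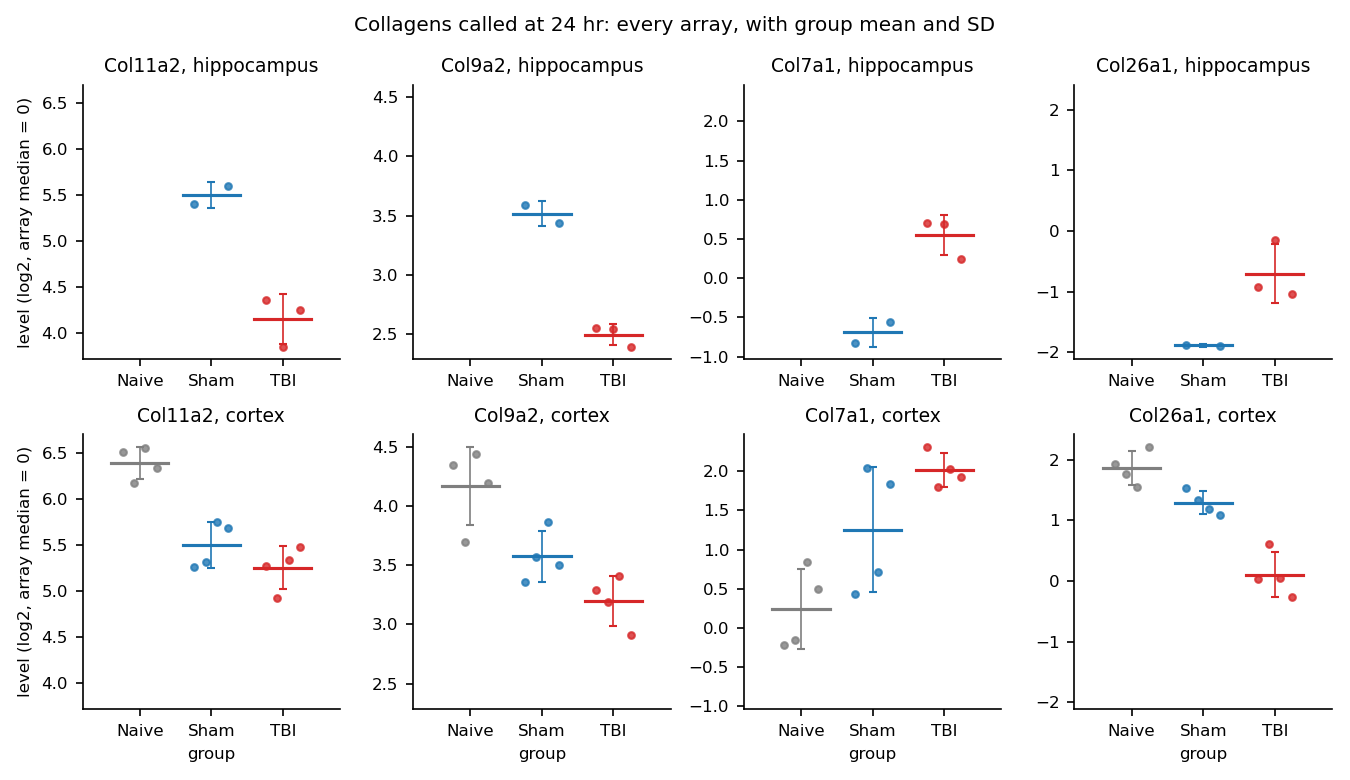
Level (log2, array median at 0, y axis) of Col11a2, Col9a2, Col7a1 and Col26a1 on every array at 24 hr by group (x axis), hippocampus in the top panels and cortex below, with group mean and SD. Col11a2 and Col9a2 sit lower in TBI than in sham hippocampus (no naive array there), and hippocampal Col26a1 passed background on 1 TBI array and no sham array.

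The limma test of the difference between the TBI effects in hippocampus and cortex at 24 hr called 1 of 17 members, Col26a1, beside 0.211% of all probes called in that direction. The effect in hippocampus minus that in cortex came to 2.37 (SE 0.36, limma adjusted p = 0.00614). The hippocampal signals were -1.87 and -1.90 in sham, above background on 0 of 2 arrays, and -0.92, -0.14 and -1.04 in TBI, above it on 1 of 3. The hippocampal side of the 2.37 is therefore a change among signals mostly not well above background, and its size is no measured difference in Col26a1 expression. The call stood without each array in turn and was lost with the replicate block (0 members called). Without cortex TBI replicate 2, Col2a1 and Col11a2 were called too. The difference between tissues was -1.10 for Col11a2 (adjusted p = 0.0624), -0.64 for Col9a2 (adjusted p = 0.179) and 0.48 for Col7a1 (adjusted p = 0.717), none of them past the threshold.

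**Figure D4:**
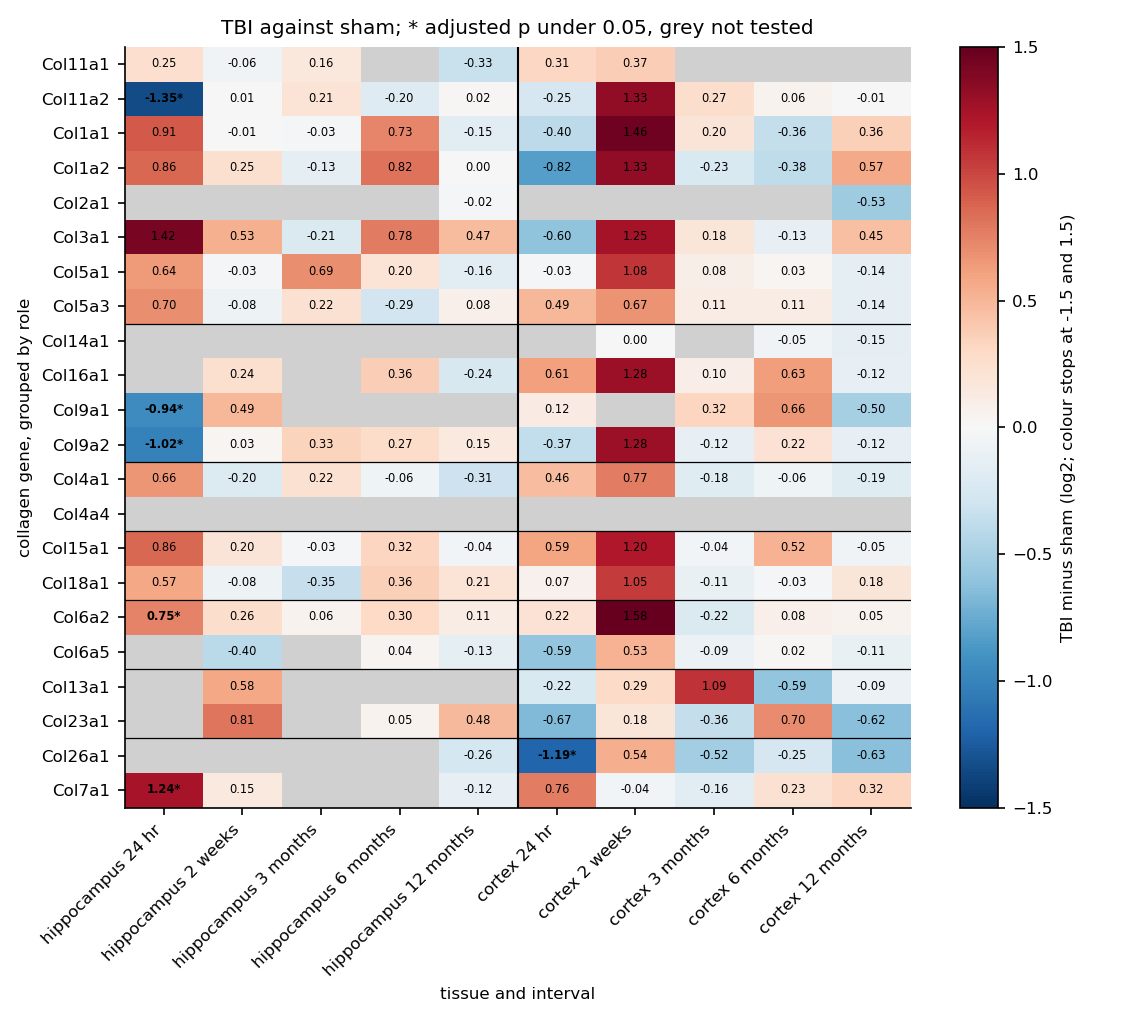
TBI minus sham (log2) for the 22 collagens (y axis, grouped by role with lines between classes) at the 5 intervals in hippocampus and cortex (x axis), 4 arrays per group except hippocampus 24 hr. Stars mark the 6 values with an adjusted p under 0.05, all at 24 hr, and the raised column for cortex at 2 weeks includes sham replicate 3, without which Col3a1 stands at -0.03.

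Beyond 24 hr 0 collagens were called between TBI and sham by limma in either tissue. Called probes made up 2.43% of all at 2 weeks in hippocampus (1.07% higher and 1.36% lower), 0.0134% at both 3 and 6 months and 0% for 12 months. In cortex the shares were 0.00848% (2 weeks), 0% (3 months), 0.0805% (6 months) and 0% (12 months). At an unadjusted p under 0.05, the members numbered 2, 1, 3 and 0 in hippocampus and 0, 1, 2 and 1 in cortex, in that order of intervals, out of 12 to 20 tested. The share of all probes at this unadjusted threshold was not computed, so these counts do not set the members apart.

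In hippocampus at 6 months, the 3 nominal members were Col1a2, Col1a1 and Col3a1. Within hippocampal groups these genes moved together (r = 0.855 to 0.915), so they are not separate results. Col1a2 read 2.31, 1.95, 2.40 and 2.12 in sham and 2.45, 3.35, 2.48 and 3.76 in TBI, so all TBI arrays were higher, as for 7.48% of all probes (0.82, SE 0.29, adjusted p = 1). Col3a1 differed by 0.78 (SE 0.30) and Col1a1 by 0.73 (SE 0.30), both with adjusted p = 1 and overlapping groups. The 2 TBI arrays highest in Col1a2, replicates 2 and 4, were those highest in Col1a1 and Col3a1, and their summed meningeal markers were 200 and 252 against 127 and 152 in the others. At 3 months Col5a1 differed by 0.69 (SE 0.24, adjusted p = 0.767) in hippocampus.

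Cortex at 2 weeks showed differences of 1.25 for Col3a1, 1.33 for Col1a2 and 1.46 for Col1a1, with SE of 0.93 to 1.01. The all-probe median was 0.95. Cortex sham replicate 3 read 1.19 for Col3a1 where its group otherwise read 5.46 to 6.78, and without it the differences were 0.32 for Col1a1, 0.05 for Col1a2, -0.03 for Col3a1, -0.13 for Col4a1 and -0.32 for Col5a1. The summed meningeal markers of that array were 25.5, against 459 to 757 in the other sham arrays. Other lists were as low there, with mural markers at 22.6 against 219 to 305, and the lowest sums in the group were 24.2 for endothelial markers (median 399), 30.1 for astrocyte markers (median 1090) and 62.9 for neuron markers (median 2130). In cortex at 6 months, TBI replicate 1 was low for Col1a1 (2.54), Col1a2 (3.04) and Col3a1 (3.26), with a meningeal sum of 160 against 697 to 1180 in its group. Leaving it out turned the differences from -0.36 to 0.33 for Col1a1, from -0.38 to 0.39 for Col1a2 and from -0.13 to 0.51 for Col3a1.

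Sham against naive gave 1 more call, in hippocampus at 2 weeks, where 8.94% of all probes were called, 5.85% higher. Col23a1 read 1.70, 1.78, 1.92 and 2.03 in naive and 1.53, 1.41, 0.70 and 0.69 in sham (-0.77, SE 0.20, adjusted p = 0.0329), 1 of 16 tested members, beside 3.09% of all probes called lower. The groups lay on different slides. The call was lost in 8 of 15 alternatives, including each fit without naive replicate 2, 3 or 4 or sham replicate 3 or 4.

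In the remaining comparisons with naive rats limma called 0 collagens. For TBI against naive hippocampus 0 of 19 members were called at 2 weeks, where 12.8% of all probes were (4.18% higher, 8.63% lower), and 0 of 15 at 3 months (0.0062% of probes, all lower). At 6 months 0 of 14 were called (3.82% of probes, 3.74% higher and 0.0765% lower), and at 12 months 0 of 14 (2.12% of probes, 1.14% higher and 0.979% lower). The members at an unadjusted p under 0.05 numbered 0, 0, 4 and 1 in that order. For sham against naive hippocampus the shares of called probes were 0% (3 months), 3.54% (6 months) and 3.11% (12 months), with 2, 0 and 2 members at an unadjusted p under 0.05. In cortex, TBI against naive called 0.12%, 0.56%, 0.253% and 5.31% of probes from 2 weeks to 12 months, with 0, 2, 2 and 4 members at an unadjusted p under 0.05, and sham against naive 0%, 0.413%, 0% and 4.35%, with 0, 1, 3 and 2 members. No share of all probes was computed at the unadjusted threshold, so the counts at it do not set the members apart.

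Among naive rats, hippocampal Col1a1 was lower at 12 months than at 2 weeks. It read 3.28, 3.52, 3.28 and 4.95 at 2 weeks and 1.40, 1.34, 2.52 and 2.13 at 12 months, groups that did not overlap (-1.91, SE 0.37, adjusted p = 0.0189). This was 1 of 16 tested members, beside 0.232% of all probes called lower. Without naive 2 weeks replicate 3 or 12 months replicate 3, Col1a2 was called too, and with no filter on dim probes 0 were. Age and slide cannot be told apart. In naive cortex 0 of 18 members were called between 12 months and 24 hr, where 0.174% of all probes were. An unadjusted p under 0.05 was seen for 1 member, and the share of all probes at that threshold was not computed.

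Within groups, arrays high in Col1a2 were high in Col1a1 and Col3a1. Each array's deviation from its group mean was correlated over arrays of the larger design, with 14 relations examined and p from 100000 permutations within groups, and 1e-05 is the smallest value these can give. Col1a2 and Col3a1 gave r = 0.947 and rho = 0.893 in cortex (n = 60, permutation p = 1e-05, adjusted 1.56e-05 and 1.75e-05) and r = 0.906 and rho = 0.847 in hippocampus (n = 36, permutation p = 1e-05, adjusted alike). Without the 2 arrays farthest out, r was 0.906 and 0.859. Col1a1 and Col1a2 gave r = 0.970 (rho = 0.933) in cortex and 0.915 (rho = 0.898) in hippocampus, and r = 0.948 and 0.871 without those arrays. The arrays left out were cortex sham replicate 3 at 2 weeks and cortex TBI replicate 1 at 6 months, and hippocampus naive replicate 4 at 2 weeks and hippocampus TBI replicate 2 at 12 months. Arrays of a group share a slide.

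The meningeal transporter Slc22a6 also tracked Col1a2, with r = 0.966 (rho = 0.946) in cortex and 0.886 (rho = 0.853) in hippocampus (permutation p = 1e-05 for each, and 0.943 and 0.827 without the 2 farthest arrays). The pericyte gene Pdgfrb gave r = 0.760 and rho = 0.573 in cortex (permutation p = 1e-05 and 5e-05, r = 0.614 without the 2 farthest) and r = 0.329 in hippocampus (permutation p = 0.0612, adjusted 0.0714). For Col4a1 and Col3a1 the values were r = 0.648 and rho = 0.351 in cortex (permutation p = 0.0205 and 0.0206, adjusted 0.0287 and 0.0288), r = 0.480 without the 2 farthest arrays, and r = 0.097 and rho = -0.036 in hippocampus (permutation p = 0.615 and 0.852). For the fibrillar Col11a2 and Col3a1 they were r = 0.648 and rho = 0.287 in cortex (permutation p = 0.0398 and 0.0668, adjusted 0.0507 and 0.085), r = 0.433 without the 2 farthest arrays, and r = 0.183 and rho = 0.147 in hippocampus (permutation p = 0.386 and 0.459). The difference between those correlations was not tested.

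**Figure D5:**
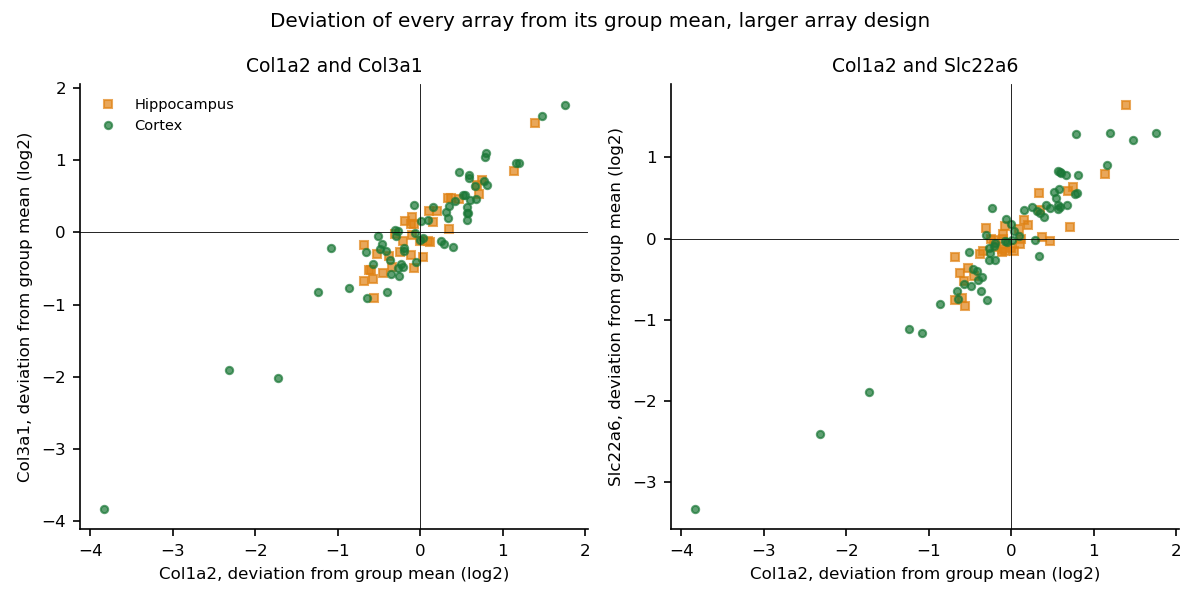
Deviation of each array from its group mean (log2) for Col1a2 (x axis) against Col3a1 and against Slc22a6 (y axes), 60 cortex and 36 hippocampal arrays of the larger design. Points of both tissues follow a rising line, and the cortex point farthest down is sham replicate 3 at 2 weeks.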

How the data were processed

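RNA from 113 tissue samples, 1 tissue of 1 rat each, was hybridized to 1-colour Agilent rat arrays. The deposited intensity values were made by the authors with Agilent Feature Extraction 11.5.1.1, which subtracts background and flags spots above it. For most probes the deposited table holds these divided by 1 constant per array. Per array, 84.1% to 100% of probes above background (median 99.9%) lay within 0.05 log2 units of such a ratio. The flags were used as deposited. Here the processed intensity was taken as log2 minus the array median. Probes above background on every array of at least 1 compared group entered limma 3.58.1 in R 4.3.3, where the naive, sham and TBI arrays of one tissue at one interval shared a model, with Benjamini-Hochberg adjustment over all tested probes (adjusted p under 0.05). Genes were named through RefSeq, 46.3% and 61.4% of probes on the 2 designs, and each gene was read from its brightest probe. Every called collagen is named, with Col1a1, Col1a2, Col3a1, Col4a1, Col5a1 and Col18a1 throughout. Members and lists were chosen with earlier results of these data known. Alternatives were other scalings, background corrections, filters, probes, fits and left-out arrays. The fits were tested on simulated data. Some genes of the partner and marker lists are not reported here by name.

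Replicate numbers were checked as pairs. Deviations of same-numbered arrays correlated above 0.1 in every pair for naive hippocampus against naive cortex at 2 weeks (0.109 to 0.248) and 12 months (0.284 to 0.372), sham against naive hippocampus at 3 months, TBI against sham cortex at 12 months and the difference of TBI effects at 6 months. The replicate block was fitted as an alternative.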

Additional observations from a re-analysis of the deposited data

Results flagged for a closer look

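Among 207 gene and group values examined in groups of 4 arrays (Col1a1, Col1a2, Col3a1, Col4a1, Col5a1 and Col18a1 in every such group, other members in the groups of a comparison that called them), 12 held 1 array far from its group, where chance gives about 1 in 20. Naive hippocampus replicate 4 at 2 weeks read 4.95 for Col1a1 (others 3.28 to 3.52) and 4.97 for Col3a1 (others 2.79 to 3.14). Cortex sham replicate 2 at 24 hr read 6.49 for Col1a2 (others 5.39 to 5.45) and 3.22 for Col5a1 (others 2.68 to 2.76). Cortex sham replicate 3 at 2 weeks read 0.47 for Col4a1 (others 3.81 to 4.2) and -2.17 for Col5a1 (others 3.3 to 3.49). For Col3a1, hippocampus TBI replicate 4 at 3 months read 2.12 (others 1.59 to 1.66) and cortex naive replicate 1 at 3 months read 3.47 (others 4.55 to 4.75). For Col5a1, hippocampus TBI replicate 2 at 2 weeks read 2.32 (others 1.72 to 1.77), cortex TBI replicate 3 at 24 hr 3.3 (others 2.62 to 2.67), cortex naive replicate 2 at 12 months 3.52 (others 2.88 to 2.96) and cortex sham replicate 2 at 12 months 2.57 (others 3.03 to 3.07). For Col26a1 at 24 hr the limma test of the TBI effect in hippocampus minus that in cortex passed with 2.37 on the log2 scale, but the hippocampal signals were above background on 0 of 2 sham and 1 of 3 TBI arrays, so that size is no measured difference in expression.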

How the results depend on the processing

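Of 42 called values of single collagens 23 kept their call under every alternative run, 19 lost it under at least 1 and 0 changed sign, with 15 lost when dim probes were not filtered and 7 with the replicate block. Counts of called collagens stayed within 1.5 times in 548 of 611 alternative values. The others follow, and the cause of these moves was not tested. TBI against sham in hippocampus at 24 hr went from 5 to 0 without the filter and 1 with the replicate block, and from 0 to 5 without single arrays (0 with 1 sham array left). In cortex at 24 hr it went from 1 to 0 with the 75th percentile, quantile normalization, the authors' table, only the 2 groups or the replicate block, to 2 without the filter and to 4 with normexp, and 0 to 1 without single arrays. It went from 0 to 1 with normexp in hippocampus at 2 weeks (0 to 1 without single arrays), and to between 0 and 1 without single arrays in cortex at 6 months. Sham against naive cortex at 24 hr went from 2 to 1 with the 75th percentile, no filter or the authors' table, 0 with quantile normalization and 5 with normexp or only the 2 groups, and 1 to 2 without single arrays. Sham against naive hippocampus went from 1 to 0 at 2 weeks without the filter, with only the 2 groups or with the replicate block (0 to 1 without single arrays), from 0 to 1 at 12 months without the filter, and to between 0 and 1 at 6 months without single arrays, as did cortex at 12 months. TBI against naive went from 0 to 2 in hippocampus at 6 months with normexp (0 to 3 without single arrays) and to 1 with only the 2 groups in cortex at 2 weeks and 12 months (there 0 to 1 without single arrays). The difference of TBI effects at 24 hr went from 1 to 0 with the replicate block and 1 to 3 without single arrays. Naive tissues at 2 weeks went from 5 to 11 with the 75th percentile and 1 without the filter, and 2 to 10 without single arrays. Naive hippocampus at 12 months against 2 weeks went from 1 to 2 with the 75th percentile or quantile normalization, 0 without the filter and 3 with the replicate block, and 1 to 2 without single arrays.

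The replicate block moved no other count by over 1.5 times. Slide as a block could not be fitted, since each group lay on 1 slide. The number of arrays limits the precision, and sparse members such as Col4a4 and Col2a1 were read near background.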
